A study of Mus musculus with 32 samples.

Results

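Sorted macrophages of the brain's borders (subdural CNS-associated macrophages, sdCAMs) were compared with whole brain tissue from the contralateral hemisphere of the same 8 mice, 1 day after an ischemic stroke. Libraries were chosen by their labels: 8 contralateral sdCAM libraries and 8 contralateral tissue libraries, 16 of the 32 in the series. All mice were WT, of both sexes, and 10 ± 3 weeks old at the start of gavage. The 4 CTL mice (A2, A3, A4 and B1) received vehicle by gavage for 7 days. The 4 BLZ945 mice (C2, C3, C4 and D1) received BLZ945, an inhibitor of the receptor CSF1R, by gavage for 7 days (200 mg/kg). Injection of thrombin into the middle cerebral artery followed 8 weeks later in every mouse, so CTL mice had a stroke too and the contralateral side is not that of an uninjured animal. The sorted cells were gated as Ly6C⁻Ly6G⁻CD11c⁻CD45⁺CD11b⁺CD206⁺, and the labels give their source as brain without choroid plexus.

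Border macrophages sit around vessels and in the leptomeninges, where they take up material from the fluid spaces and present antigen. CD206, the mannose receptor encoded by Mrc1, marks them, together with the hemoglobin scavenger receptor Cd163 and the chemokine Pf4, whereas microglia in the parenchyma express little of these and more P2ry12 and Tmem119. Whole tissue holds mostly RNA of neurons and glia, so the comparison asks what the sort enriched and which other cells' RNA was still present.

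Total counts on genes ranged from 7397393 to 11081409 per sdCAM library (median 9439786.5) and from 9401549 to 12781505 per tissue library (median 10748562). Values are given in CPM, a gene's counts scaled to the total of its library. The level that 3 counts stand for, used as a floor, was 0.271 to 0.406 CPM in sdCAMs and 0.235 to 0.319 CPM in tissue, and covers counting error only. Between 15202 and 16431 genes had a count in an sdCAM library, and between 18001 and 18699 in a tissue library. The 10 most abundant genes took 7.64 to 10.8% of sdCAM counts and 2.99 to 3.33% of tissue counts. For CTL mouse A3, the tissue library labelled contralateral (library 20) carries the other hemisphere's letter in the count table, and the labels were followed. The study left out 2 sdCAM libraries for low alignment, both ipsilateral. Sorted cells and tissue were also extracted and prepared by different protocols, so material and preparation cannot be told apart in any value below.

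Of 19505 genes tested, 5719 (29.3%) were higher and 6299 (32.3%) lower in sdCAMs, at an adjusted p under 0.05 and a log2 fold change beyond 0.59. No sdCAM library overlapped any tissue library for 4274 genes higher (21.9%) and 4885 genes lower (25%) in sdCAMs. The median log2 fold change over all genes was -0.10. This median shifted by -0.20 under TMM scaling, by -0.31 under DESeq2's size factors, by 0.06 with limma and by 0.21, to 0.11, without the replicate block, and list medians below are to be read relative to it. The lists that follow group genes by cell type or role, and their counts are to be read against these shares over all genes. In bulk RNA, fewer cells of a type and less RNA per cell cannot be told apart.

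Genes of the proteins the gate selects for were higher in sdCAMs. Cells were sorted on these proteins, so this direction was largely set by the gate and the values describe the sort. Mrc1, which encodes CD206, was between 360.4 and 1702 CPM in sdCAMs (median 696) and between 2.36 and 3.86 CPM in tissue (median 2.97). The lowest sdCAM library lay far above the highest tissue library, and CTL mouse B1 had the most Mrc1 RNA. The mean was 271 times that of tissue (log2 fold change 7.89 ± 0.37 (SE), adjusted p = 1.89e-08, higher in 8 of 8 mice). Ptprc, encoding CD45, was between 206 and 713 CPM in sdCAMs (median 411) and between 2.66 and 4.77 CPM in tissue (median 3.601), and its mean was 115 times higher (log2 fold change 6.76 ± 0.27 (SE), adjusted p = 6.54e-09, higher in 8 of 8 mice). Itgam, encoding CD11b, was between 138 and 305 CPM in sdCAMs (median 229) and between 5.16 and 7.59 CPM in tissue (median 6.36) (log2 fold change 5.11 ± 0.18 (SE), adjusted p = 3.91e-09, higher in 8 of 8 mice). Every sdCAM library exceeded every tissue library for both genes.

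Genes of the proteins the gate selects against were not absent. Itgax, encoding CD11c, was between 8.60 and 32.3 CPM in sdCAMs (median 18.6) and between 0.171 and 1.09 CPM in tissue (median 0.504), with higher values in every mouse (log2 fold change 5.25 ± 0.30 (SE), adjusted p = 7.72e-08, higher in 8 of 8 mice). Ly6c1, an endothelial gene, was between 212 and 1093 CPM in sdCAMs (median 624.9) and between 19.7 and 30.3 CPM in tissue (median 24.8) (log2 fold change 4.52 ± 0.34 (SE), adjusted p = 7.12e-07, higher in 8 of 8 mice). Ly6c2, the form of inflammatory monocytes, was between 12.99 and 53.8 CPM in sdCAMs (median 19.7) and between 0 and 0.189 CPM in tissue (median 0), with only 2 counts over all tissue libraries. Ly6c1 and Ly6c2 are near-identical copies, so how their reads were divided is uncertain. Ly6g, a neutrophil gene, was at 0 in 4 of 8 sdCAM libraries and reached 4.19 CPM, with 0 counts in tissue. It passed the test (adjusted p = 0.0298, higher in 4 of 8 mice), but not with DESeq2 (log2 fold change 2.55), without mouse C2 (4.77) or without mouse D1 (4.82). Antibody gates act on protein, and surface protein was not measured in these libraries.

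All 22 genes of the border macrophage list were higher in sdCAMs, with no overlap between materials for any of them, and their median log2 fold change was 7.96. Mrc1, counted among them, encodes a protein the gate selects for. Cd163 was between 60.4 and 730.1 CPM in sdCAMs (median 202) and between 1.17 and 4.13 CPM in tissue (median 1.79). The values spread widely among mice, and the 4 CTL mice included the highest ones. Its mean was 133 times that of tissue (log2 fold change 6.72 ± 0.53 (SE), adjusted p = 9.22e-07, higher in 8 of 8 mice). Pf4 was between 168 and 769.8 CPM in sdCAMs (median 313) and between 0.0993 and 0.514 CPM in tissue (median 0.209). Tissue held it near or below the floor, and CTL mouse A3 had the highest tissue value. The mean was 1448 times that of tissue (log2 fold change 10.34 ± 0.39 (SE), adjusted p = 4.87e-09, higher in 8 of 8 mice).

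Lyve1, a hyaluronan receptor, was between 109 and 649.6 CPM in sdCAMs (median 302) and between 0.275 and 1.97 CPM in tissue (median 0.616) (log2 fold change 8.58 ± 0.57 (SE), adjusted p = 2.5e-07, higher in 8 of 8 mice). The galactose-binding lectins Mgl2 (log2 fold change 9.03 ± 0.33 (SE)) and Clec10a (7.59 ± 0.38 (SE)) rose together, as did the fatty acid receptor Cd36 (7.97 ± 0.35 (SE)). Clec4n, encoding the lectin Dectin-2, had the largest log2 fold change of the list and was between 98.5 and 401 CPM in sdCAMs (median 194) and between 0 and 0.367 CPM in tissue (median 0) (log2 fold change 11.11 ± 0.45 (SE), adjusted p = 8.01e-09, higher in 8 of 8 mice). Stab1, a scavenger receptor, rose by a log2 fold change of 4.35 ± 0.38 (SE) and the collectin Colec12 by 2.90 ± 0.33 (SE). Dab2, an endocytic adaptor, was between 414 and 1496 CPM in sdCAMs (median 754) and between 5.86 and 21.1 CPM in tissue (median 12.4), so its lowest sdCAM library stood well above tissue. The folate receptor gene Folr2 was low in level, between 6.23 and 28.2 CPM in sdCAMs (median 20.3) and between 0 and 0.283 CPM in tissue (median 0).

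The remaining members rose as well. F13a1, the A subunit of coagulation factor XIII, had the highest summed CPM of the list in sdCAMs and was between 400.1 and 1583 CPM in sdCAMs (median 1039) and between 0.893 and 3.51 CPM in tissue (median 2.05) (log2 fold change 8.97 ± 0.42 (SE), adjusted p = 2.06e-08, higher in 8 of 8 mice). Cbr2 (8.86 ± 0.23 (SE)), Ms4a7 (9.50 ± 0.51 (SE)) and the chemokine Ccl24 (9.31 ± 0.39 (SE)) had log2 fold changes close to each other. Siglec1, encoding CD169, had a log2 fold change of 5.90 ± 0.34 (SE), Cd38 of 5.71 ± 0.27 (SE) and Clec12a of 6.65 ± 0.61 (SE). Gas6, a ligand of phagocytic receptor kinases, had the smallest, 2.09 ± 0.22 (SE), and was between 260.5 and 855 CPM in sdCAMs (median 529) and between 101 and 142 CPM in tissue (median 125). Cd209f was between 5.56 and 329 CPM in sdCAMs (median 51.5) and between 0 and 0.303 CPM in tissue (median 0.145), and Cd209b was between 0.946 and 86.0 CPM in sdCAMs (median 17.7) and between 0 and 0.257 CPM in tissue (median 0). Both were higher in each CTL sdCAM library than in any BLZ945 library, and as related genes of the Cd209 cluster their split of reads is uncertain. The summed level of the list was between 3629.7 and 11762 CPM in sdCAMs (median 5911) and between 141 and 214 CPM in tissue (median 182), of which Gas6 made up 68.2% in tissue.

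**Figure D1:**
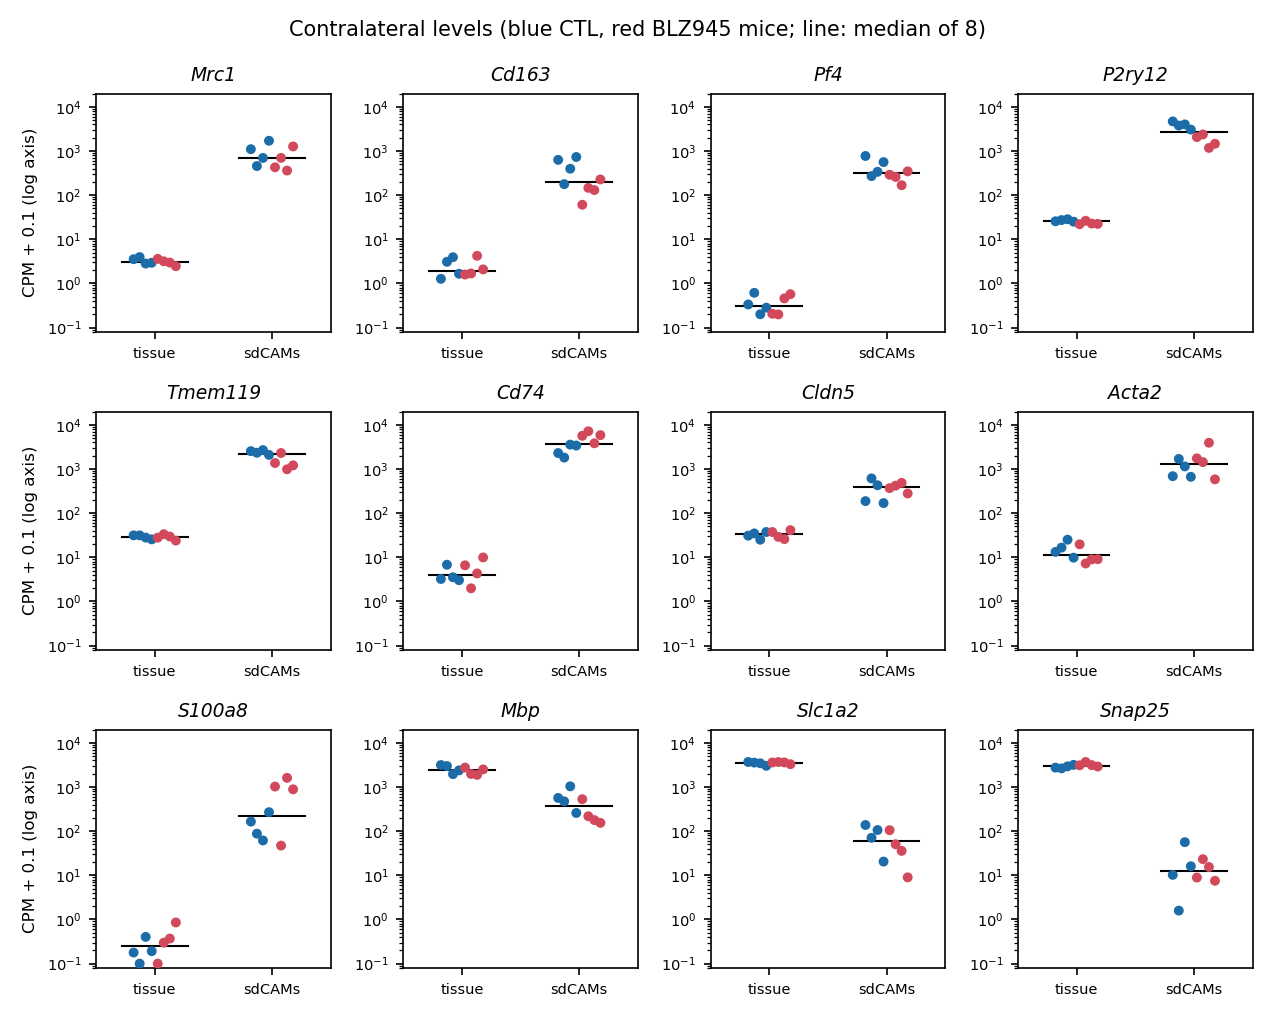
Levels of 12 genes in the 8 contralateral tissue and 8 contralateral sdCAM libraries, in CPM plus 0.1 on a log axis, with a point per mouse (blue CTL, red BLZ945) and a line at the median. From Mrc1 to S100a8 all sdCAM points lie above all tissue points, and for Mbp, Slc1a2 and Snap25 all sdCAM points lie below.

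Genes shared by macrophages rose without exception: 20 of 20 were higher, without overlap, at a median log2 fold change of 6.47. Their summed level was between 24275 and 54597 CPM in sdCAMs (median 42609) and between 519 and 637 CPM in tissue (median 564). BLZ945 mouse C4 had the lowest sum and CTL mouse A2 the highest. Ctss, encoding the protease cathepsin S, was between 3837 and 7515 CPM in sdCAMs (median 6323) and between 66.9 and 96.2 CPM in tissue (median 76.1) (log2 fold change 6.28 ± 0.19 (SE), adjusted p = 2.02e-09, higher in 8 of 8 mice). Csf1r, whose product BLZ945 inhibits, was between 1762 and 6398 CPM in sdCAMs (median 4156) and between 103 and 119 CPM in tissue (median 114) (log2 fold change 5.12 ± 0.24 (SE), adjusted p = 1.97e-08, higher in 8 of 8 mice). No sdCAM library came near tissue for either gene. The signalling adaptor genes Tyrobp (log2 fold change 6.42 ± 0.14 (SE)) and Fcer1g (7.34 ± 0.19 (SE)) rose in all 8 mice.

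Of the CSF1 receptor axis, 7 of 8 genes were higher and 1 lower, with a median log2 fold change of 5.14. The gene that fell was Il34, a ligand of CSF1R that neurons express. It was between 3.17 and 24.7 CPM in sdCAMs (median 14.7) and between 37.9 and 64.4 CPM in tissue (median 48.0), without overlap (log2 fold change -2.08 ± 0.38 (SE), adjusted p = 0.000624, lower in 8 of 8 mice).

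Microglia genes were present in every sdCAM library. The list has 13 genes, of which Fcrls is not in the tables, and all 12 tested were higher in sdCAMs without overlap, at a median log2 fold change of 5.82. P2ry12, a purine receptor, was between 1171 and 4668 CPM in sdCAMs (median 2705) and between 21.8 and 28.4 CPM in tissue (median 25.2). The lowest sdCAM values came from BLZ945 mice, and none approached tissue. Its mean was 113 times that of tissue (log2 fold change 6.69 ± 0.26 (SE), adjusted p = 5.64e-09, higher in 8 of 8 mice). Tmem119 was between 982 and 2676 CPM in sdCAMs (median 2192) and between 23.8 and 33.3 CPM in tissue (median 28.6) (log2 fold change 5.997 ± 0.21 (SE), adjusted p = 3.91e-09, higher in 8 of 8 mice).

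Per kilobase of exon (lengths from GENCODE M21, which may differ from the annotation used for counting), the mean sdCAM level was 1106 CPM for P2ry12 and 836 for Tmem119. On the same scale Mrc1 stood at 131 CPM, Cd163 at 57.1 and Pf4 at 519.6. Mean levels per length of these microglia genes were thus above those of the 3 border macrophage markers in the sdCAM libraries. Levels of the other members of either list are not given on this scale, and Tmem119 was chosen after its values were seen. Mrc1, Cd163 and Pf4 were higher in sdCAMs than in tissue, and Mrc1 encodes the protein the cells were sorted on. The sdCAM libraries also held RNA of defining microglia genes, with no member of the list at 0 in any of them. Summed over each list, sdCAMs averaged 16924 CPM for microglia genes and 6651 CPM for border macrophage genes. Sparc, a matrix glycoprotein gene that other brain cells express too, was between 1339 and 3212 CPM in sdCAMs (median 2292) and between 179 and 817 CPM in tissue (median 606) (log2 fold change 2.27 ± 0.31 (SE), adjusted p = 7.6e-05, higher in 8 of 8 mice). The summed microglia level was between 8916 and 23579 CPM in sdCAMs (median 17113) and between 423 and 1056 CPM in tissue (median 844), with Sparc the most abundant gene in tissue. The part of microglia RNA in the other macrophage results was not tested.

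Genes of MHC class II presentation rose in full, 10 of 10 without overlap, at a median log2 fold change of 6.61. The invariant chain gene Cd74 was between 1811 and 7139.5 CPM in sdCAMs (median 3685) and between 1.89 and 9.82 CPM in tissue (median 3.82) (log2 fold change 9.76 ± 0.44 (SE), adjusted p = 1.53e-08, higher in 8 of 8 mice). H2-Ab1, a chain of the presenting molecule, was between 932 and 2647 CPM in sdCAMs (median 1483) and between 0.596 and 2.87 CPM in tissue (median 1.26) (log2 fold change 10.01 ± 0.41 (SE), adjusted p = 7.81e-09, higher in 8 of 8 mice), and its partner H2-Aa had a log2 fold change of 9.27 ± 0.31 (SE). All sdCAM libraries lay above all tissue libraries, and C3 had the most Cd74.

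Among 16 macrophage transcription factors, 13 were higher and 3 (Mef2c, Pparg and Etv1) were not called, with a median log2 fold change of 3.21. Spi1, encoding the lineage factor PU.1, was between 214 and 413 CPM in sdCAMs (median 329) and between 2.78 and 5.14 CPM in tissue (median 3.98) (log2 fold change 6.34 ± 0.18 (SE), adjusted p = 1.79e-09, higher in 8 of 8 mice). Irf8 had a log2 fold change of 6.17 ± 0.18 (SE). Mef2c, which neurons express too, was between 215 and 459.9 CPM in sdCAMs (median 351) and between 418 and 655 CPM in tissue (median 485) and was not called (log2 fold change -0.51 ± 0.17 (SE), adjusted p = 0.0214, lower in 7 of 8 mice), but it was called lower under TMM scaling (-0.72), under DESeq2's size factors (-0.83) and without mouse A2 (-0.59). Under each of these scalings 2 genes of the list were lower.

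Complement genes were higher in 14 of 16 cases, with the genes of component 2 and factor B not called, and a median log2 fold change of 4.90. C1qb, a chain of the initiating complex, was between 3020.4 and 8107 CPM in sdCAMs (median 6109.9) and between 50.3 and 71.4 CPM in tissue (median 56.6) (log2 fold change 6.61 ± 0.22 (SE), adjusted p = 3.03e-09, higher in 8 of 8 mice). C1qa had a log2 fold change of 5.65 ± 0.22 (SE) and C1qc of 6.35 ± 0.22 (SE), without overlap between materials.

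Of 19 scavenger receptor and lipid genes tested, 15 were higher, 3 lower and 1 (Fabp5) not called, with a median log2 fold change of 3.34. Apoe, the main brain apolipoprotein, was between 6663 and 17324 CPM in sdCAMs (median 10705) and between 1039 and 1568 CPM in tissue (median 1416) (log2 fold change 2.95 ± 0.21 (SE), adjusted p = 3.79e-07, higher in 8 of 8 mice) and made up 68.0% of the summed sdCAM level. Trem2, a lipid-sensing receptor, rose by 5.93 ± 0.22 (SE). The members that fell were Lrp1 (log2 fold change -1.94 ± 0.15 (SE), adjusted p = 9.22e-07, lower in 8 of 8 mice), Abcg1 (log2 fold change -0.99 ± 0.19 (SE), adjusted p = 0.000754, lower in 8 of 8 mice) and Stab2 (log2 fold change -2.75 ± 1.05 (SE), adjusted p = 0.0395, lower in 7 of 8 mice). Stab2 stayed at or below 2.35 CPM in either material. It was not called without A2 (-2.29), A3 (-2.37), A4 (-2.90), C4 (-2.41) or D1 (-2.59), nor without A4, C3 and C4 together (-3.21). Marco, with 0 counts in sdCAMs and 3 in tissue, was not tested.

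Engulfment and Fc receptor genes were higher in 14 of 16 cases, lower for Tyro3 and not called for Itgav, at a median log2 fold change of 4.59. Fcgr3, an IgG receptor, was between 1294 and 2333 CPM in sdCAMs (median 1906) and between 10.1 and 15.1 CPM in tissue (median 13.1) (log2 fold change 7.21 ± 0.19 (SE), adjusted p = 1.54e-09, higher in 8 of 8 mice). The integrin gene Itgb5 rose by 4.18 ± 0.17 (SE). Tyro3, a receptor kinase for Gas6, was between 3.44 and 15.6 CPM in sdCAMs (median 8.61) and between 192 and 331 CPM in tissue (median 212), with every sdCAM library below every tissue library (log2 fold change -4.93 ± 0.31 (SE), adjusted p = 1.66e-07, lower in 8 of 8 mice).

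Of 23 lysosome genes tested, 20 were higher, Gaa was lower, and Psap and Npc1 were not called, with a median log2 fold change of 4.10. The protease gene Ctsb was between 4749.6 and 10421 CPM in sdCAMs (median 7192) and between 720.3 and 785 CPM in tissue (median 763) (log2 fold change 3.29 ± 0.17 (SE), adjusted p = 4.55e-08, higher in 8 of 8 mice), and Ctsd, another cathepsin, rose by 4.62 ± 0.18 (SE). Gaa, the acid glucosidase gene, was between 123 and 195 CPM in sdCAMs (median 172) and between 391 and 679.6 CPM in tissue (median 585), without overlap (log2 fold change -1.78 ± 0.14 (SE), adjusted p = 1.13e-06, lower in 8 of 8 mice).

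Iron and heme genes were higher in 8 of 11 cases tested, lower for Lrp1 and the transferrin receptor gene Tfrc (log2 fold change -0.91 ± 0.19 (SE), adjusted p = 0.00168, lower in 7 of 8 mice), and not called for Hpx, with a median log2 fold change of 3.599. The ferritin chain gene Fth1 was between 3801 and 9901 CPM in sdCAMs (median 4855) and between 1280.0 and 1714 CPM in tissue (median 1542) (log2 fold change 1.81 ± 0.17 (SE), adjusted p = 4.06e-06, higher in 8 of 8 mice). Ftl1, the light chain, rose by 4.52 ± 0.17 (SE). C2 had the most Fth1 of the sdCAM libraries.

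Chemokine genes were higher in 18 of 20 cases and lower for Cx3cl1 and Cxcl14. Their median log2 fold change was 8.46, or 7.97 with Cxcl9, at 0 in tissue, set to its lower bound. Ccl6 was between 359 and 1461 CPM in sdCAMs (median 598) and between 0.893 and 1.61 CPM in tissue (median 1.39) (log2 fold change 8.97 ± 0.32 (SE), adjusted p = 3.71e-09, higher in 8 of 8 mice), and Ccl12 rose by 10.14 ± 0.36 (SE). Ccl4 was between 83.8 and 721 CPM in sdCAMs (median 408), against 1 count over all tissue libraries, and the division of reads between Ccl4 and the related Ccl3 is uncertain. Cxcl2, an attractant of neutrophils, was between 9.20 and 1735 CPM in sdCAMs (median 160.2) and between 0 and 0.283 CPM in tissue (median 0), highest in C2 and D1 and lowest in A4. Cx3cl1, a neuronal ligand, was between 9.96 and 52.8 CPM in sdCAMs (median 31.5) and between 666 and 981 CPM in tissue (median 783) (log2 fold change -4.76 ± 0.28 (SE), adjusted p = 1e-07, lower in 8 of 8 mice). Cxcl14 fell too (log2 fold change -1.60 ± 0.23 (SE), adjusted p = 8.72e-05, lower in 8 of 8 mice), and for both genes all sdCAM libraries lay below tissue.

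Immediate early genes, which respond to stimulation and to tissue handling, were higher in 16 of 21 cases, lower in 3 and not called for Fosb and Fosl2, at a median log2 fold change of 3.66. Fos was between 512 and 4439 CPM in sdCAMs (median 1342) and between 12.7 and 43.4 CPM in tissue (median 22.6) (log2 fold change 6.07 ± 0.45 (SE), adjusted p = 5.69e-07, higher in 8 of 8 mice). Its sdCAM values spread over a wide range, with no overlap with tissue. Zfp36, which destabilises inflammatory mRNAs, rose by 8.16 ± 0.41 (SE) and the phosphatase gene Dusp1 by 5.08 ± 0.37 (SE). The neuronal activity genes Egr3 (log2 fold change -6.32 ± 0.57 (SE), adjusted p = 2.54e-06, lower in 8 of 8 mice) and Arc (log2 fold change -4.67 ± 0.62 (SE), adjusted p = 5.36e-05, lower in 8 of 8 mice) fell. Npas4 fell as well, from 6.69 CPM or more in tissue to 2 counts over all sdCAM libraries. The sum over the list was between 4960.4 and 21587 CPM in sdCAMs (median 7767) and between 838 and 1664 CPM in tissue (median 1191), with D1, B1 and C2 the highest sdCAM libraries. Cells were dissociated and sorted and tissue was not, and the part of handling was not tested.

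Blood cell RNA was present in sdCAM libraries. Of 11 neutrophil genes, 9 were higher and Ltf and Mpo not called, with a median log2 fold change of 6.68, also with Ly6g and Cxcr2, at 0 in tissue, set to their lower bounds. The calprotectin gene S100a8 was between 47.0 and 1607 CPM in sdCAMs (median 216) and between 0 and 0.756 CPM in tissue (median 0.145) (log2 fold change 10.90 ± 0.62 (SE), adjusted p = 7.43e-08, higher in 8 of 8 mice). BLZ945 libraries C2, C4 and D1 were the highest, and BLZ945 library C3 the lowest. Csf3r, the receptor for G-CSF, rose by 5.15 ± 0.16 (SE) and made up 90.1% of the tissue sum. Neutrophil sums were between 269 and 3248 CPM in sdCAMs (median 690.0) and between 4.85 and 7.54 CPM in tissue (median 6.48). Ly6g and Ltf were at 0 in 4 sdCAM libraries each, Camp in 3 and Mpo in 6. The part of these cells in other results was not tested.

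All 8 monocyte genes were higher, at a median log2 fold change of 9.34. Ccr2, the receptor that recruits monocytes, was between 52.3 and 318 CPM in sdCAMs (median 136) and between 0 and 0.851 CPM in tissue (median 0.0963) (log2 fold change 9.69 ± 0.48 (SE), adjusted p = 2.89e-08, higher in 8 of 8 mice) and the most abundant member in sdCAMs. Chil3, a chitinase-like gene, was between 1.43 and 492.6 CPM in sdCAMs (median 24.7) and between 0 and 0.189 CPM in tissue (median 0). Ms4a4c was between 12.6 and 159.8 CPM in sdCAMs (median 44.5) and between 0 and 0.213 CPM in tissue (median 0). Summed over the list, C2, C4 and D1 were again on top, with 1183, 789 and 1216 CPM. The other sdCAM sums lay between 149 and 261 CPM and those of tissue between 0.367 and 1.60 CPM, and Treml4 was at 0 in 1 sdCAM library. The paper reports stronger Ccr2 expression in repopulated sdCAMs derived from hematopoietic stem cells than in those of yolk sac origin. Ccr2 is thus not a marker of monocytes alone. The part of monocytes in the macrophage lists was not tested.

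Lymphocyte RNA was found as well. Of 13 T and NK cell genes, 12 were higher and Cd4 not called, with a median log2 fold change of 8.17, or 7.89 with Cd3g and Gzmb, at 0 in tissue, set to their lower bounds. Nkg7, a cytotoxic granule gene, was between 36.5 and 109 CPM in sdCAMs (median 48.2) with 2 counts over all tissue libraries. Cd3g, a chain of the T cell receptor complex, was between 10.8 and 53.9 CPM in sdCAMs (median 30.7) and at 0 in tissue, at least 116-fold higher against 3 counts per library. The interleukin receptor chain Il2rb rose by 6.97 ± 0.50 (SE). Cd4 overlapped between materials and was between 0 and 58.1 CPM in sdCAMs (median 16.9) and between 1.41 and 47.1 CPM in tissue (median 12.78) (log2 fold change -0.37 ± 1.25 (SE), adjusted p = 0.811, lower in 4 of 8 mice). Its direction turned without C3 (0.21), without C4 (0.25) and without A4, C3 and C4 (1.23). Sums were between 189 and 601 CPM in sdCAMs (median 315) and between 8.29 and 57.6 CPM in tissue (median 23.9), with Cd4 supplying 65.2% in tissue and at 0 in 1 sdCAM library.

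Of 7 B cell genes, 6 were higher and Pax5 not called, at a median log2 fold change of 5.90. Ighm, the IgM heavy chain gene, was between 189 and 985 CPM in sdCAMs (median 325) and between 23.5 and 54.3 CPM in tissue (median 33.2) (log2 fold change 3.37 ± 0.31 (SE), adjusted p = 3.09e-06, higher in 8 of 8 mice), and A2 held the most. Cd79b, a chain of the B cell receptor, rose by 7.20 ± 0.46 (SE) and the IgD gene Ighd by 5.86 ± 0.50 (SE). The B cell sum was between 229 and 1132 CPM in sdCAMs (median 419) and between 23.8 and 55.4 CPM in tissue (median 34.0), of which Ighm made up 82.9% in sdCAMs and 97.5% in tissue. Pax5 was at 0 in 4 sdCAM libraries. The part of lymphocytes in other results was not tested.

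Of 8 dendritic cell genes, 6 were higher and Flt3 and Clec9a not called, with a median log2 fold change of 4.19. Cd209a was between 67.1 and 342 CPM in sdCAMs (median 209) and between 0 and 0.275 CPM in tissue (median 0.145) (log2 fold change 10.29 ± 0.43 (SE), adjusted p = 8.82e-09, higher in 8 of 8 mice), and it made up 67.7% of the summed sdCAM level. The migration receptor gene Ccr7 rose by 8.15 ± 0.83 (SE) and the transcription factor gene Zbtb46 by 1.34 ± 0.17 (SE). Dendritic cell sums were between 164 and 416 CPM in sdCAMs (median 302) and between 18.6 and 28.3 CPM in tissue (median 22.2), with Clec9a at 0 in 6 sdCAM libraries and Xcr1 in 2. Of 6 mast cell genes, 5 were higher and Kit lower (log2 fold change -2.63 ± 0.37 (SE), adjusted p = 9.22e-05, lower in 8 of 8 mice), at a median of 7.33, or 5.74 with Cma1 and Cpa3, at 0 in tissue, set to their lower bounds. DESeq2 called 3 of the mast cell genes higher. Tpsb2, a tryptase gene, was between 1.27 and 123 CPM in sdCAMs (median 2.64) with 3 counts over all tissue libraries, while Hdc, the histamine-forming enzyme, rose by 3.45 ± 0.39 (SE) and was the most abundant. Mast cell sums were between 33.0 and 371 CPM in sdCAMs (median 65.0) and between 41.3 and 53.0 CPM in tissue (median 45.5), with C4 and C2 the highest sdCAM libraries, Mcpt4 at 0 in 4 and Cpa3 in 3. The part of either cell type in other results was not tested.

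Of 4 red blood cell genes tested, 3 were higher and Slc4a1 not called, at a median log2 fold change of 5.92. The list has 6 genes, of which the globin gene Hbb-bs is not in the tables under that symbol, so the sums leave it out. Hba-a1 was between 43.0 and 858 CPM in sdCAMs (median 248) and between 0.359 and 5.32 CPM in tissue (median 3.29) (log2 fold change 6.37 ± 0.65 (SE), adjusted p = 6.99e-06, higher in 8 of 8 mice), while its near-identical copy Hba-a2 was at 0 in every library, so their counts are uncertain. The globin gene Hbb-bt rose by 6.70 ± 0.59 (SE) and the heme synthesis gene Alas2 by 5.47 ± 0.53 (SE). Red blood cell sums were between 77.0 and 1217 CPM in sdCAMs (median 444) and between 0.718 and 10.4 CPM in tissue (median 5.27). Among sdCAM libraries C4 was the highest and C3 the lowest, and Slc4a1 was at 0 in 5 sdCAM libraries. The part of blood in other results was not tested.

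Vascular genes were mostly higher in sdCAMs. Of 13 endothelial genes, 12 rose and Cdh5 was not called, at a median log2 fold change of 2.74. Slc2a1, the glucose transporter of the blood-brain barrier, was between 568.1 and 1994 CPM in sdCAMs (median 1202) and between 151 and 194 CPM in tissue (median 167) (log2 fold change 2.74 ± 0.25 (SE), adjusted p = 2.81e-06, higher in 8 of 8 mice). Cldn5, a tight junction gene, was between 169 and 611 CPM in sdCAMs (median 394) and between 24.9 and 41.1 CPM in tissue (median 32.7) (log2 fold change 3.40 ± 0.27 (SE), adjusted p = 1.11e-06, higher in 8 of 8 mice), with every sdCAM library above tissue. Itm2a was the most abundant endothelial gene in sdCAMs and rose by 4.85 ± 0.39 (SE). No endothelial gene was at 0 in any sdCAM library. The summed level was between 2195 and 7988 CPM in sdCAMs (median 4742) and between 478 and 652 CPM in tissue (median 543), a log2 ratio within mice of 3.02 ± 0.79 (SD, n = 8 mice). The part of endothelial RNA in the macrophage results was not tested.

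Of 10 mural cell genes, 7 rose and Pdgfrb, Abcc9 and Notch3 were not called, at a median log2 fold change of 2.17. Acta2, the actin of smooth muscle, was between 582 and 3922 CPM in sdCAMs (median 1284) and between 7.15 and 24.9 CPM in tissue (median 11.4) (log2 fold change 6.57 ± 0.41 (SE), adjusted p = 1.6e-07, higher in 8 of 8 mice) and made up 62.3% of the sdCAM sum. Vtn (1.87 ± 0.29 (SE)) and Rgs5 (1.20 ± 0.27 (SE)), genes of pericytes, rose by less. C4 had the highest sum in sdCAMs, and Abcc9 was at 0 in 2 libraries. The sums were between 1078 and 5439 CPM in sdCAMs (median 2087) and between 208 and 296 CPM in tissue (median 240.4), and the part of mural cells in other results was not tested.

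Of 10 leptomeningeal fibroblast genes, 5 rose, Igf2 fell and Col1a1, Col1a2, Slc6a13 and Slc47a1 were not called, with a median log2 fold change of 1.49. Over all genes 29.3% were called higher and 32.3% lower. Of the 10 genes, 3 were higher without overlap between materials, against 21.9% of all genes. Dcn, a matrix proteoglycan, was between 11.7 and 319.6 CPM in sdCAMs (median 73.5) and between 4.86 and 15.9 CPM in tissue (median 9.90) (log2 fold change 2.92 ± 0.49 (SE), adjusted p = 0.000337, higher in 8 of 8 mice). Ogn, another proteoglycan, rose by 3.30 ± 0.50 (SE) and the transcription factor gene Foxc1 by 2.97 ± 0.24 (SE). Igf2 was between 0 and 1.37 CPM in sdCAMs (median 0.538) and between 1.17 and 4.82 CPM in tissue (median 1.92) (log2 fold change -2.59 ± 0.87 (SE), adjusted p = 0.0224, lower in 7 of 8 mice), and it was not called without mouse A3 (-2.51). Fibroblast sums were between 122 and 798 CPM in sdCAMs (median 223) and between 42.7 and 87.5 CPM in tissue (median 65.3), with Dcn the most abundant gene in sdCAMs, Igf2 and Slc47a1 at 0 in 2 sdCAM libraries each and Col1a1 in 1. Their part in other results was not tested.

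The log2 ratio of summed choroid plexus genes, sdCAMs over tissue, had an SD between mice larger than its mean, 3.02 ± 6.23 (SD, n = 8 mice). With edgeR 0 of 8 genes were called and 0 had an unadjusted p under 0.05, against 29.3% of all genes called higher and 32.3% lower. DESeq2 called 1 gene of the list higher, limma 2 and edgeR without the replicate block 3. The median log2 fold change was 1.37. Ttr, the transthyretin gene, was between 24.9 and 37740.0 CPM in sdCAMs (median 3268) and between 0.359 and 2709 CPM in tissue (median 335) (log2 fold change 1.04 ± 2.72 (SE), adjusted p = 0.751, higher in 4 of 8 mice) and supplied 94.4% of the sdCAM sum. The ranges of the materials overlapped. The summed level in sdCAMs was 39744 CPM in C4, 21529.9 in C3, 9811 in A4 and 5585 in D1. It was 1528 CPM in C2, 302 in A3, 102 in B1 and 31.1 in A2.

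Tissue sums of the same genes ran in another order, with 21.6 CPM in C4, 7.25 in C3 and 25.03 in A4, the lowest of the 8. D1 had 2979 CPM, C2 2472, A3 2403, B1 682 and A2 79.5. Mice A4, C3 and C4 thus combined the 3 highest sdCAM sums with the 3 lowest tissue sums. Cldn2 was at 0 in 3 sdCAM libraries, Aqp1 in 2, and Folr1, Kcnj13, Clic6 and Kl in 1 each. In an alternative chosen after seeing the data, without mice A4, C3 and C4, 5055 genes were higher and 5519 lower over all genes. Without them the log2 fold changes of Ttr (-1.46) and Clic6 (-1.72) were negative, and Kl was lower (-2.90). The direction of Clic6 also turned without A4 (-0.22), C3 (-0.40) or C4 (-0.35) alone. That of Kl (-0.09 ± 2.03 (SE) over all mice) turned without A2 (0.95), A3 (0.91), B1 (1.03) or C2 (0.71). Kl turned as well with limma (0.26) and without the replicate block (1.16). The part of choroid plexus RNA in single genes of the other lists was not tested beyond this alternative.

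**Figure D2:**
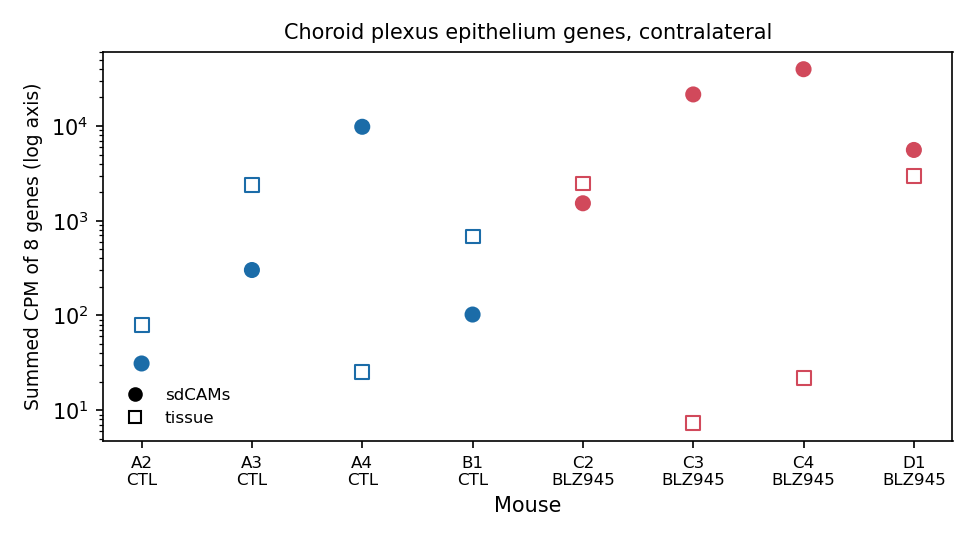
Summed CPM of 8 choroid plexus epithelium genes (log axis) in the contralateral libraries of each mouse, filled circles for sdCAMs and open squares for tissue, blue for CTL and red for BLZ945 mice. In A4, C3 and C4 sdCAM sums lie far above tissue sums, in A2, A3, B1 and C2 below them, and in D1 above.

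Of 6 ependymal genes tested, 5 were higher and the cilium regulator Foxj1 was not called, at a median log2 fold change of 3.89. Pifo, the other gene of the list, is not in the tables under that symbol. Ccdc153 was the most abundant in sdCAMs and was between 17.03 and 257 CPM in sdCAMs (median 68.1) and between 1.89 and 11.8 CPM in tissue (median 4.68) (log2 fold change 3.63 ± 0.56 (SE), adjusted p = 0.000186, higher in 8 of 8 mice). Tmem212 rose by 4.75 ± 0.66 (SE) and Rarres2, encoding chemerin, by 3.45 ± 0.34 (SE). Ependymal sums were between 88.4 and 778 CPM in sdCAMs (median 246) and between 16.7 and 61.9 CPM in tissue (median 31.5), with A3 the highest sdCAM library and no member at 0 in any of these. The part of ependymal cells in other results was not tested.

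Neuron genes had the lowest median of the lists. All 16 were lower without overlap, at a median log2 fold change of -8.25. Snap25, a presynaptic fusion protein gene, was between 1.49 and 56.1 CPM in sdCAMs (median 12.7) and between 2639 and 3683 CPM in tissue (median 3015) (log2 fold change -7.96 ± 0.54 (SE), adjusted p = 2.76e-07, lower in 8 of 8 mice). CTL mouse A4 kept the most Snap25 and A3 the least, all far below tissue. Camk2a, a kinase of excitatory neurons, was between 2.51 and 32.6 CPM in sdCAMs (median 5.15) and between 3078 and 4378 CPM in tissue (median 3398) (log2 fold change -9.23 ± 0.47 (SE), adjusted p = 3.32e-08, lower in 8 of 8 mice), and the calcium sensor gene Syt1 fell by 10.47 on the log2 scale. The receptor subunit gene Grin1 was at 0 in 4 sdCAM libraries, and the transporter gene Slc17a6 in 7. Neuron sums were between 31.3 and 247 CPM in sdCAMs (median 84.3) and between 13198 and 16993 CPM in tissue (median 13992), so tissue held 162 times as much (geometric mean over mice).

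Glial RNA fell unevenly. Of 12 astrocyte genes, 8 were lower, Sox9 was higher and Aqp4, Gja1 and Gjb6 were not called, with a median log2 fold change of -1.32. The glutamate transporter genes differed in how far they fell. Slc1a2 was between 8.88 and 138 CPM in sdCAMs (median 60.4) and between 3015 and 3677 CPM in tissue (median 3571) (log2 fold change -6.09 ± 0.47 (SE), adjusted p = 8.55e-07, lower in 8 of 8 mice). Slc1a3 was between 132 and 629.7 CPM in sdCAMs (median 329) and between 502 and 632 CPM in tissue (median 604) (log2 fold change -0.92 ± 0.26 (SE), adjusted p = 0.00914, lower in 7 of 8 mice), with overlapping ranges. Aldoc, a glycolytic enzyme gene, fell without overlap (log2 fold change -1.79 ± 0.33 (SE), adjusted p = 0.000646, lower in 8 of 8 mice). Sox9, a transcription factor, was between 26.4 and 84.4 CPM in sdCAMs (median 47.4) and between 16.6 and 35.4 CPM in tissue (median 24.1) (log2 fold change 0.94 ± 0.22 (SE), adjusted p = 0.00291, higher in 7 of 8 mice), but not called without A4, C3 and C4 (0.77). Without D1, 2 astrocyte genes were higher. The astrocyte sum was between 423 and 2746 CPM in sdCAMs (median 1604) and between 5505 and 6765 CPM in tissue (median 6198), a log2 ratio of -2.20 ± 0.88 (SD, n = 8 mice). Aldoc was the most abundant astrocyte gene in sdCAMs, no member was at 0 in any of them, and the part of astrocyte RNA was not tested.

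Of 10 oligodendrocyte genes, 6 were lower and 4 were not called, at a median log2 fold change of -0.85, against 32.3% of all genes lower. Of the 10 genes, 2 were lower without overlap between materials, against 25% of all genes. Mbp, encoding myelin basic protein, was between 154 and 1034 CPM in sdCAMs (median 365) and between 1878 and 3138 CPM in tissue (median 2438) (log2 fold change -2.80 ± 0.31 (SE), adjusted p = 1.31e-05, lower in 8 of 8 mice), and Mobp, another myelin gene, had a log2 fold change of -2.06 ± 0.33 (SE). Every sdCAM library lay below every tissue library for Mbp, and the ranges of Mobp overlapped. Oligodendrocyte sums were between 1059.9 and 7851 CPM in sdCAMs (median 3299) and between 5395 and 8854 CPM in tissue (median 7484), a log2 ratio of -1.30 ± 0.80 (SD, n = 8 mice), with no member at 0 in any sdCAM library, and their part in other results was not tested.

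All 8 oligodendrocyte precursor genes were lower, at a median log2 fold change of -3.73. Olig1, a lineage transcription factor gene, was between 9.19 and 81.1 CPM in sdCAMs (median 32.9) and between 101 and 189 CPM in tissue (median 144) (log2 fold change -2.31 ± 0.33 (SE), adjusted p = 9.67e-05, lower in 8 of 8 mice). Sox10 (-3.18 ± 0.66 (SE)) and Pdgfra (-4.27 ± 0.81 (SE)) were at 0 in 1 sdCAM library each, Neu4 in 6 and Gpr17 in 4.

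**Figure D3:**
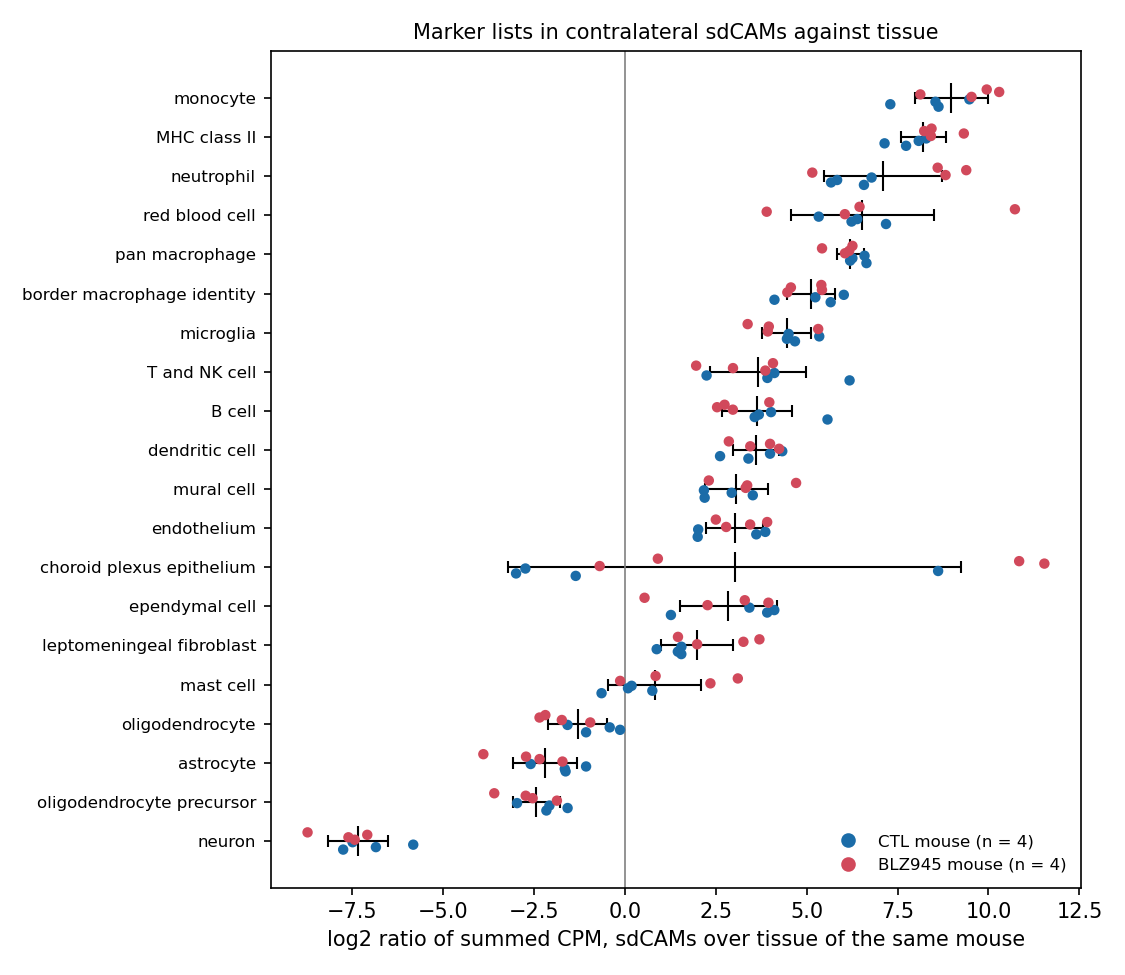
Log2 ratio of the summed CPM of each marker list in sdCAMs over tissue of the same mouse, with a point per mouse (blue CTL, red BLZ945), a tick at the mean and a bar of 1 SD over 8 mice. By their means, monocyte and MHC class II lists lie farthest right and the neuron list farthest left. Single points lie farther right in the choroid plexus list (C3 and C4) and the red blood cell list (C4), and the choroid plexus list spans both sides of 0.

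Genes were also taken by their fitted log2 fold change, among called genes with a mean of at least 10 CPM in the higher material and the same direction in 8 of 8 mice. The 8 with the highest fitted values were Ccl4, Cxcl3, Cxcl2, S100a9, Trem1, Cd3g, Clec4n and Clec4d. Fitted values against 0 counts, as for Cxcl3, Trem1 and Cd3g, are no measure of size, so this is not a ranking of folds. Cxcl3, another neutrophil attractant, was between 0.541 and 402 CPM in sdCAMs (median 50.6) and at 0 in tissue. Trem1, an amplifier of myeloid inflammation, was between 2.94 and 127 CPM in sdCAMs (median 28.1) and at 0 in tissue. C2, C4 and D1 were above the other libraries for Trem1, and D1 and C2 were the highest and A4 the lowest for Cxcl3. S100a9 was between 39.8 and 1274 CPM in sdCAMs (median 196) and between 0 and 0.378 CPM in tissue (median 0) (log2 fold change 11.88 ± 0.52 (SE), adjusted p = 1.23e-08, higher in 8 of 8 mice), and Clec4d was between 3.61 and 149 CPM in sdCAMs (median 35.1) with 1 count over all tissue libraries.

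The 8 with the lowest fitted values under the same conditions were Kcnj4, Hapln4, Lmtk3, Gpr26, Dclk3, Tmem63c, Tac1 and Gpr83. Kcnj4, Dclk3, Tmem63c, Tac1 and Gpr83 were at 0 in sdCAMs, so their order is no ranking of folds either. Kcnj4, a neuronal potassium channel gene, was between 106 and 219 CPM in tissue (median 132) and at 0 in every sdCAM library, at least 466.1-fold lower against the floor. Tac1, the gene of substance P, was between 23.7 and 108 CPM in tissue (median 38.5) and also at 0 in all sdCAMs, at least 152-fold lower. Lmtk3 was between 350.2 and 432 CPM in tissue (median 387), with 3 counts over all sdCAM libraries, and Hapln4, a link protein of perineuronal nets, was between 149.97 and 232 CPM in tissue (median 200.0), with 1.

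The comparison was also made within each treatment. In CTL mice 4837 genes were higher (24.8%) and 4951 lower (25.4%) in sdCAMs, and in BLZ945 mice 4929 (25.3%) and 4926 (25.3%). Of the genes called higher, 4379 were shared, 90.5% of those in CTL and 88.8% of those in BLZ945 mice. Of the genes called lower, 4306 were shared, 87.0% and 87.4%, and 0 were called in opposite directions. All border macrophage, pan macrophage, microglia and MHC class II genes tested were higher in each treatment, and all neuron genes were lower. Numbers called differed for some other lists. Of 20 chemokine genes, 14 were higher in CTL and 18 in BLZ945 mice, of 6 mast cell genes 3 and 5, and of 16 complement genes 15 and 12. Of 10 oligodendrocyte genes, 3 were lower in CTL and 7 in BLZ945 mice, and of 12 astrocyte genes 6 and 8. Differences between these counts were not tested.

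The difference of the enrichment between BLZ945 and CTL mice was tested gene by gene. With edgeR, 0 genes (0%) passed, the smallest adjusted p was 0.527, and 681 genes had an unadjusted p under 0.05. DESeq2 called 20 genes higher and 30 lower, and limma 0 and 0. Without mouse C3 the edgeR test called 1 gene, Epha7, an ephrin receptor gene named here after its value was seen. Missing the threshold does not show that the enrichments were equal.

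Some sdCAM levels, chosen here after they were seen, lay apart by treatment without passing this test. Cd163 averaged 483 ± 247 CPM in CTL and 141 ± 68.2 CPM in BLZ945 sdCAMs (SD, n = 4 each), and the difference of its log2 enrichment was -1.66 ± 0.78 (SE), adjusted p = 1. Not all border macrophage genes differed in this direction, and for Mgl2 the difference was 0.65 ± 0.64 (SE), adjusted p = 1. For Clec4n the fitted difference was 4.13 ± 0.96 (SE), also without passing the test. Clec4n was at 0 in the tissue of every BLZ945 mouse, so this value is no measure of size. Sums of the list in sdCAMs overlapped, from 3699.9 to 11762 CPM in CTL and from 3629.7 to 8502 CPM in BLZ945 mice. P2ry12 averaged 3867 ± 669 CPM in CTL and 1763 ± 547 CPM in BLZ945 sdCAMs (SD, n = 4 each), and its difference was -0.98 ± 0.27 (SE), adjusted p = 1. Each CTL library held more P2ry12 than any BLZ945 library. The opposite order held for the summed MHC class II level, which was 4779, 4224, 7133 and 6580.5 CPM in the CTL sdCAMs of A2, A3, A4 and B1. In the BLZ945 sdCAMs of C2, C3, C4 and D1 it was 10902, 13596, 7554 and 11170.3 CPM. For H2-Ab1 the difference of the log2 enrichment was 0.78 ± 0.60 (SE), adjusted p = 1. The microglia sum lay apart too, from 17366 to 23579 CPM in CTL and from 8916 to 16860.4 CPM in BLZ945 sdCAMs, and all other list sums overlapped. Sums of other lists differed in mean between the same libraries, and Ccr2 of the monocyte list is not a marker of monocytes alone. The monocyte sum averaged 213 ± 46.9 CPM in CTL and 852 ± 463 CPM in BLZ945 sdCAMs (SD, n = 4 each), the neutrophil sum 519.8 ± 216 CPM in CTL and 2138 ± 1317 CPM in BLZ945 sdCAMs, and the choroid plexus sum 2562 ± 4834 CPM in CTL and 17097 ± 17392 CPM in BLZ945 sdCAMs. Mean fibroblast sums were higher in BLZ945 sdCAMs too (428 against 178 CPM in CTL), as were mast cell sums (179 against 54.8 CPM). Mean oligodendrocyte (2167 against 4714 CPM), astrocyte (1140 against 1979 CPM) and B cell sums (335 against 629 CPM) were lower in BLZ945 sdCAMs. Whether cell composition accounts for the treatment differences was not tested.

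Since macrophage genes rose together, their promoters were searched for letters that PU.1, the product of Spi1, is known to bind, GAGGAAGT, and for the AP-1 letters TGANTCA, on both strands of the 250 bases before each gene's start (RefSeq, build GRCm38.p6). Among all 27025 genes with a promoter, 2.79% held the PU.1 letters and 7.82% the AP-1 letters. The border macrophage list had 16 of 22 genes matched by symbol, of which 1 held the PU.1 letters and 4 the AP-1 letters. In the pan macrophage list 14 of 20 genes matched, with 1 and 2 holding them, and in the microglia list 10 of 13, with 0 and 0. For the PU.1 letters alone, the largest count among all lists was in the neutrophil list, with 4 of 11 genes. A match describes letters only. The stretches in Pf4 and C1qc are shown because these are the genes of the border and pan macrophage lists that hold the PU.1 letters. Each is given 5′ to 3′ along the gene's strand, with the reverse complement of the PU.1 letters in capitals. The Pf4 stretch lies at chr5:90772385-90772434 on the plus strand, with its match 10 bases from the gene's start, and the C1qc stretch, with its match 195 bases from the start, at chr4:136893062-136893149 on the minus strand.
Pf4: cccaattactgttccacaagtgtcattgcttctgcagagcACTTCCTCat
C1qc: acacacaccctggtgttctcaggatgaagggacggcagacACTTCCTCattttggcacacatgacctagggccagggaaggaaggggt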

How the data were processed

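RNA was sequenced from whole brain tissue and from sorted sdCAMs of 8 WT mice, and the 16 contralateral libraries were used. Tissue RNA was extracted with RNeasy columns, and cDNA of sorted cells was amplified before Nextera XT preparation and single-end sequencing. The authors aligned reads with STAR 2.7.11a, counted them on genes with featureCounts 2.0.8 and deposited raw counts for 33280 genes in a table for each material, with no normalization. The sources name more than one genome build and do not say which was used here. Every table column was assigned to a mouse, treatment and hemisphere by its name, except that the hemispheres of the A3 tissue libraries were taken from the labels. The labels put all libraries in batch 1, so no values within batches could be given.

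Genes were joined by row name, and genes with a summed count under 8 were removed. In R 4.3.3 the quasi-likelihood F-test of edgeR 4.0.16 was run two-sided with the mouse as a block and library totals as the only scaling, adjusted by Benjamini-Hochberg over all genes tested. A further term gave each treatment's comparison and their difference. The code was tested on simulated data. Each list was described by its counts, its median and its summed CPM. Levels per length used exon lengths from GENCODE M21. A fold against a material at 0 was computed against 3 counts per library as a lower bound.

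Samples are paired because both materials came from the same animals. As a check, deviations from the group means over 7971 genes with at least 10 CPM in both materials had a median correlation of 0.014 between the materials of a mouse (from -0.139 to 0.165) and of -0.040 between different mice of a treatment. No library was a copy of another (chi-square per gene of at least 42.8 between sdCAM and 4.49 between tissue libraries of a group).

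Genes named were taken from Mrc1, Cd163 and Pf4, genes of the sort gate, all border macrophage genes, the 3 members of every other list with the highest mean CPM, members called against the majority, and the 8 largest fitted changes each way among called genes with a mean of 10 CPM or more that moved alike in 8 of 8 mice. For the difference between treatments they would be the 3 largest called changes each way, but 0 were called. Tmem119, Cldn5, Epha7, Fras1 and Gfpt2 were chosen after their values were seen, as were members named only as not called or at 0. Members and lists were chosen with earlier results of these data known. Alternatives were TMM scaling, DESeq2's size factors, DESeq2 1.42.0, limma 3.58.1 on within-mouse log2 CPM differences (prior count 2, variance trend on mean log2 CPM), no replicate block, other filters, other fold thresholds, the A3 hemispheres of the column names, leaving out each mouse, the median over list members in place of the sum, and leaving out A4, C3 and C4, added after seeing the data.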

Additional observations from a re-analysis of the deposited data

Results flagged for a closer look

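In 70 groups of 4 mice, 3 values lay far from the other values of their group, and chance flags about 1 in 20 groups. The log2 sdCAM to tissue ratio of summed leptomeningeal fibroblast CPM was 0.87 in CTL mouse A4, against 1.55, 1.46 and 1.55 in the other CTL mice. The same ratio for choroid plexus epithelium was 8.61 in CTL mouse A4, against -1.35, -2.99 and -2.74. The log2 ratio of Pf4 was 9.04 in CTL mouse A3, against 11.68, 11.71 and 11.58, and A3 had more Pf4 in tissue and less in sdCAMs than the CTL median. Causes were not tested.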

How the results depend on the processing

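The counts of genes higher or lower in sdCAMs, over all mice and in each treatment, stayed within 1.5 times the values given under the alternatives run, except a stricter fold threshold. Leaving out A4, C3 and C4 together was run for the counts over all mice and not within treatments. With a log2 fold change beyond 2, 2982 genes were higher over all mice, 2524 in CTL and 2616 in BLZ945 mice, since the threshold admits fewer genes. Over all mice, genes higher and lower numbered 5115 and 6927 under TMM scaling, 4807 and 7256 under DESeq2's size factors, 5817 and 6504 with DESeq2, 5935 and 6841 with limma, and 5706 and 6284 with the A3 hemispheres of the column names. Without the pairing by mouse (no replicate block) they numbered 6698 and 6447. Leaving out each mouse gave 5485 to 5746 higher and 6005 to 6109 lower.

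The difference between treatments called 20 genes higher and 30 lower with DESeq2, and 3 higher (Epha7, Fras1 and Gfpt2, named after their values were seen) and 6 lower without the replicate block. Leaving out each mouse gave 0 to 1 higher. The cause was not tested.

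Among named genes, 14 values turned direction, 7 passed the test and 11 lost it under an alternative, and 2228 kept direction and side of the threshold. The turns were in Cd4, Clic6, Kl and Ttr. Leaving out each mouse, the log2 fold change of Cd4 ran from -0.99 to 0.25, that of Clic6 from -0.40 to 1.00 and that of Kl from -1.10 to 1.03. Without A4, C3 and C4, Cd4 was at 1.23, Clic6 at -1.72 and Ttr at -1.46. For Kl, limma gave 0.26 and no replicate block 1.16. None of these genes was called over all mice, and the cause was not tested. Of the counts of called list members, 1083 stayed within 1.5 times and 19 did not. Of these 19, 7 moved with a log2 fold change beyond 2, in the astrocyte, oligodendrocyte, scavenger, lysosome, chemokine and iron lists. The others were in the choroid plexus, mast cell, astrocyte, fibroblast and transcription factor lists. Of the list ratios, 358 moved by less than 1 SD between mice and 18 by more, 16 of these with the median over members. That median gave no value for monocytes. Totals without mitochondrially encoded genes were not run, since the tables hold 0 such genes. Depth limits folds of genes near 3 counts in either material, and with 4 mice a treatment, small differences between treatments may be missed.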
